A study of Mus musculus with 24 samples.

Results

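Liver Treg carried less RNA of 8 protein-coding genes than Treg of lymph node, blood and spleen, and these genes are described here across all sorted populations. The genes are Gpr83, Stra6, Slc22a2, Pdzk1ip1, Syp, Eno3, Tgm2 and Spin2c, 8 of the 35612 genes in the deposited table. They were chosen by their normalized counts, which were lower in liver Treg than in the other Treg groups, so that difference is the choice itself and is given without a test. The study made 24 poly(A) RNA libraries from T cells of male C57BL/6 mice of the Foxp3Thy1.1 strain, 5 months old, with cells of 3 mice in each pool. In these mice the Thy1.1 protein marks cells that express Foxp3, and all groups carry this reporter. Each of the liver, the lymph node that drains it (LDLN), the blood (PBMC) and the spleen gave 3 pools of Foxp3-positive regulatory T cells (Treg) and 3 pools of Foxp3-negative conventional T cells (Tconv), both sorted as live CD45-positive TCRβ-positive CD4 cells without NK-1.1, CD8α or binding of the CD1d tetramer, after positive selection for CD4. The labels list no treatment, and mice within a pool cannot be separated.

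Treg are CD4 T cells that restrain immune responses, and the transcription factor Foxp3 maintains their program. Treg that recirculate through lymph nodes and spleen differ in gene expression from Treg that reside in organs such as the liver, where local cytokines, antigens and metabolites shape them. Among the 8 genes, Gpr83 is a G protein-coupled receptor known as a mark of mouse Treg. Stra6 is a membrane receptor that takes up retinol from its carrier protein, Slc22a2 is an organic cation transporter best known from kidney, and Pdzk1ip1 is a small membrane protein that binds PDZ-domain scaffolds. Syp (synaptophysin) is a membrane protein of secretory vesicles, Eno3 is the muscle form of the glycolytic enzyme enolase, Tgm2 is a transglutaminase that cross-links proteins, and Spin2c belongs to the spindlin family, whose members read methylated histones.

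Depth was 17523927 to 25398037 reads per library. Foxp3 had normalized counts of 1402 to 2227 in the 12 Treg libraries. In 7 Tconv libraries it lay between 13.6 and 30.5, while LDLN Tconv 3, Liver Tconv 1, Liver Tconv 3, PBMC Tconv 1 and Spleen Tconv 3 had 560.0, 305.2, 491.5, 627.4 and 592.7, so these 5 libraries stood apart from their label. Il2ra, the interleukin-2 receptor alpha chain, was 6608 to 23816 in Treg and 226.2 to 1423 in Tconv. The summed T cell markers (Cd3e, Cd3g, Trac, Cd4 and Cd5) were 70817 or more in every group. Platelet markers (5 genes) summed to 44.3 to 90.7 in liver, 40.9 to 61.6 in LDLN, 519.5 to 918.1 in PBMC and 123.4 to 238.8 in spleen Treg, and 3 of the 5 were lower in liver Treg than in the lymphoid Treg mean. B cell markers summed to 32955 to 51762 in liver Treg and 15918 to 83403 in the other Treg groups. Erythroid markers summed to 10446 to 28190 in liver Treg, 362.3 to 916.8 in LDLN Treg and 11731 to 50379 in PBMC and spleen Treg. Liver Tconv 2 stood apart from Liver Tconv 1 and 3 in several lists, with sums of 10896 against 272.4 and 255.2 for macrophages and monocytes, 7163 against 935.5 and 1800 for NK cells, 1871 against 83.7 and 91.7 for neutrophils, 2473 against 588.4 and 802.5 for CD8 and gamma-delta T cells and 128000 against 6942 and 33132 for erythroid cells. The part of these cells in the results was not tested. Of 10 hepatocyte markers looked for by symbol, 0 were found in the table used here, so they give no measure of hepatocyte RNA.

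The 8 genes lie on several chromosomes (GRCm38, GENCODE M21), with Gpr83 and Stra6 both on chromosome 9 and Syp and Spin2c both on chromosome X. Gpr83 (ENSMUSG00000031932) spans chr9:14860210-14870789, Stra6 (ENSMUSG00000032327) chr9:58063788-58153996, Slc22a2 (ENSMUSG00000040966) chr17:12584132-12628488, Pdzk1ip1 (ENSMUSG00000028716) chr4:115088708-115093899, Syp (ENSMUSG00000031144) chrX:7638471-7653256, Eno3 (ENSMUSG00000060600) chr11:70657202-70662513 and Spin2c (ENSMUSG00000046550) chrX:153832225-153834243, all on the plus strand. Tgm2 (ENSMUSG00000037820) lies on the minus strand at chr2:158116402-158146436. Syp begins 43226 bases beyond the end of Foxp3. Syp shares 875 exon bases with the antisense gene Gm14703, and Tgm2 shares 370 with Rprd1b on the opposite strand and 633 with Gm20412. A strand setting of the counting is not given in the sources used here, and reads of such pairs cannot be told apart. Spin2c has close copies in its family, which makes its counts less certain.

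Promoter sequence was read for 7 of the 8 genes from RefSeq on GRCm38.p6, with 10 start sites in all. The windows below are shown because the genes were low together in 1 cell population, and they are the windows with a motif match plus that of Syp, which lies near Foxp3. Each runs 5′ to 3′ and stops before the first base that GENCODE annotates as exon, so some are shorter than the window searched, and capitals mark the motif match.
Gpr83 chr9:14859960-14860209, plus strand: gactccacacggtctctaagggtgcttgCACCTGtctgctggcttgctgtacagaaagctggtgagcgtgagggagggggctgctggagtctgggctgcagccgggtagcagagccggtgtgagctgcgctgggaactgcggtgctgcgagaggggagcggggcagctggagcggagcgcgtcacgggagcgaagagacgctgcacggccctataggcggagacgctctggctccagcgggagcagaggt
Stra6 chr9:58128838-58129087, plus strand: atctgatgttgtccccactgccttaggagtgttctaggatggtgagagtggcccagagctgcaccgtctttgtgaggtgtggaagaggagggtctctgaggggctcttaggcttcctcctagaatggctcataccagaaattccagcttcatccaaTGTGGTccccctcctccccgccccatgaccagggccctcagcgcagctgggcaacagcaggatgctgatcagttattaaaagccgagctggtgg
Spin2c chrX:153832043-153832224, plus strand: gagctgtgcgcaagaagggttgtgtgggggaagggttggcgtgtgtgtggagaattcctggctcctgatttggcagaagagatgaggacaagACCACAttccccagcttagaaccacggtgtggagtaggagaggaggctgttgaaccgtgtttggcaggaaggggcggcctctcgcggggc
Eno3 chr11:70656926-70657175, plus strand: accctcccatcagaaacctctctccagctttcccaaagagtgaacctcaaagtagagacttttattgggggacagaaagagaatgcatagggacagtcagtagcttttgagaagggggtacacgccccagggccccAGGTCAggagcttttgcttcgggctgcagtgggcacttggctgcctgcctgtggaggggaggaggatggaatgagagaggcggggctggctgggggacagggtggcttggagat
Syp chrX:7638330-7638470, plus strand: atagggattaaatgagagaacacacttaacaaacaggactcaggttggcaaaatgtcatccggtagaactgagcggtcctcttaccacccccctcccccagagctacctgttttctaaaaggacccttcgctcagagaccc
Both strands were searched over the full 250 bases before each of the 10 RefSeq starts, and distances are counted from that start. The E-box CAGGTG matched 222 bases before the start of Gpr83, as its reverse complement CACCTG, and was in 17.2% of 32851 RefSeq promoters. The Runx motif TGTGGT matched 94 bases before Stra6 and, as ACCACA, 158 bases before Spin2c, and was in 14.0% of promoters. The nuclear receptor core AGGTCA matched 114 bases before Eno3 and was in 14.0% of promoters. The forkhead motif TGTTTAC (3.17% of promoters), the Ets motif CCGGAAGT (2.88%), the STAT motif TTCNNNGAA (7.02%), the AP-1 motif TGANTCA (6.75%) and the Lef and Tcf motif TTCAAAG (4.46%) had 0 matches in the 10 windows. No motif of those searched was in more than 2 of the windows.

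In each of the 8 genes, all 3 liver Treg libraries lay below all 9 other Treg libraries, which was true of 2.9% of the 18576 genes tested and is fixed by the choice of genes. Per kilobase of exon, Gpr83 was the most abundant of them in LDLN Treg with a mean normalized count of 1520, followed by Eno3 with 351.8, Spin2c with 295.9, Pdzk1ip1 with 134.0, Slc22a2 with 75.9, Stra6 with 46.6, Syp with 45.2 and Tgm2 with 23.5. On the same per-kilobase scale, liver Treg had 342.2 for Gpr83, 76.5 for Eno3, 40.2 for Spin2c and 4.68 to 16.5 for the other 5. In bulk RNA, fewer cells with a transcript and less transcript per cell cannot be told apart.

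**Figure D1:**
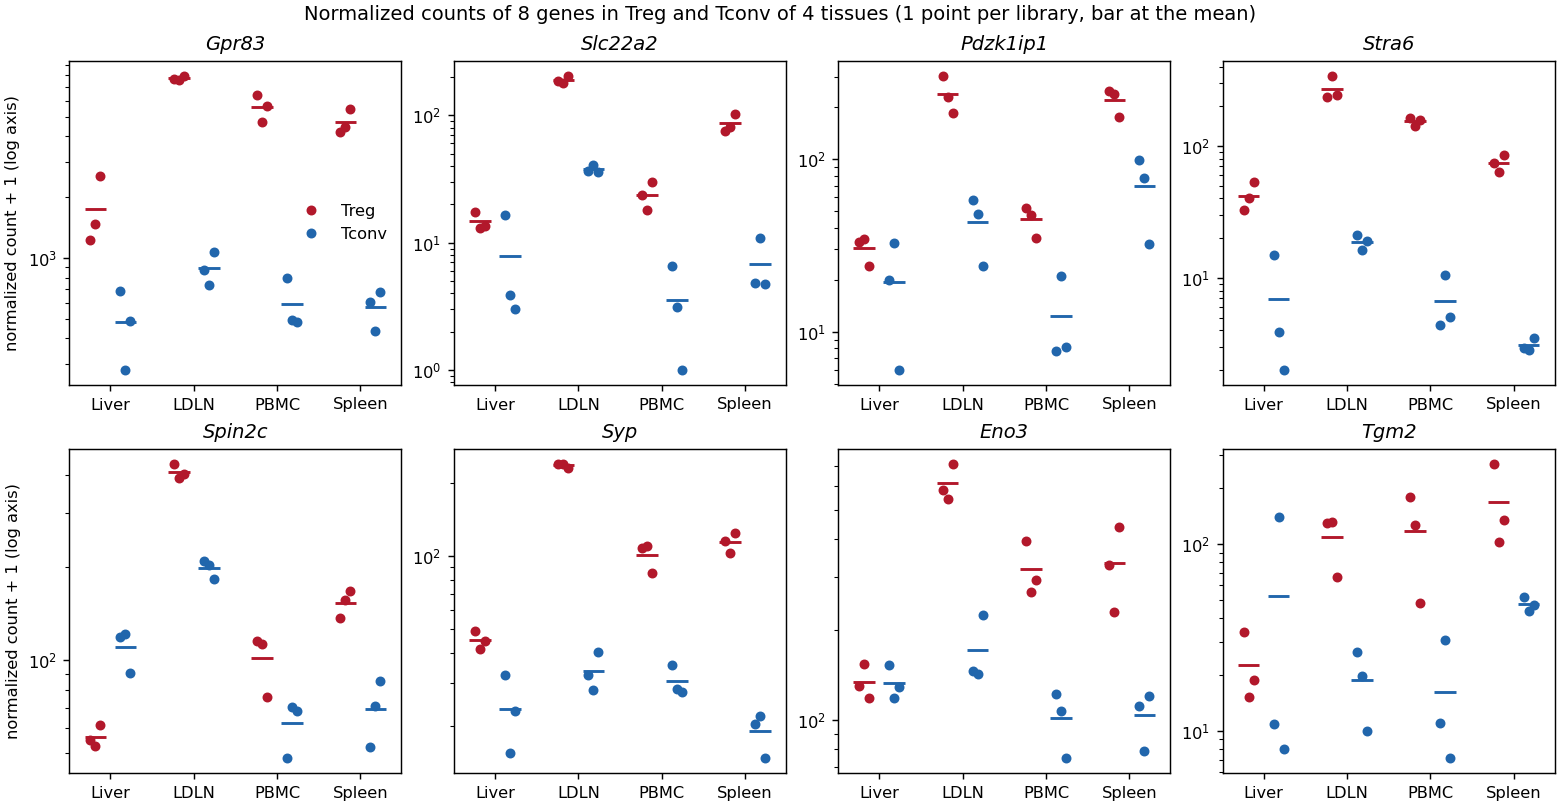
Normalized count + 1 (log axis) of each of the 8 genes in liver, LDLN, PBMC and spleen, with 1 point per library and a bar at the mean of 3 libraries, Treg in red and Tconv in blue. The red points of liver lie below the red points of the other tissues in each panel, as the genes were chosen, and in the Spin2c panel they also lie below the blue points of liver.

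Gpr83 is the receptor gene with the highest level of the group. Its normalized counts in Treg were 1231, 1470 and 2530 in liver, 7672, 7598 and 7970 in LDLN, 6422, 4700 and 5680 in PBMC and 4189, 4430 and 5487 in spleen. In Tconv they were 683.5, 277.6 and 485.5 in liver, 867.6, 734.4 and 1067 in LDLN, 790.7, 493.4 and 482.0 in PBMC and 604.1, 434.5 and 678.4 in spleen. Treg lay above Tconv in every tissue, and the liver Treg, the lowest of the Treg groups, remained above all 12 Tconv libraries. The Treg mean was 3.62 times the Tconv mean in liver and 8.71, 9.51 and 8.22 times it in LDLN, PBMC and spleen. LDLN and PBMC Treg did not overlap, whereas PBMC and spleen Treg did.

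Stra6, the retinol receptor, had the largest ratio of Treg to Tconv means of the 8 genes in each tissue, at 6.91 (liver), 15.2 (LDLN), 27.0 (PBMC) and 35.5 (spleen). Its Treg counts were 31.9, 39.3 and 52.1 in liver, 234.2, 339.2 and 240.9 in LDLN, 160.8, 140.2 and 155.7 in PBMC and 73.3, 62.7 and 84.8 in spleen. Its Tconv counts were 13.9, 2.88 and 1.00 in liver, 20.3, 15.2 and 18.1 in LDLN, 3.36, 9.49 and 4.09 in PBMC and 1.93, 1.81 and 2.48 in spleen. The 4 Treg groups were apart from each other in the order LDLN, PBMC, spleen, liver, and every Treg library was above every Tconv library. The spleen Tconv values rest on a few reads each and carry a large counting error.

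Slc22a2, the cation transporter, was highest in LDLN and spleen Treg. Treg counts were 16.4, 12.1 and 12.5 in liver, 184.0, 178.6 and 202.8 in LDLN, 22.7, 17.2 and 28.7 in PBMC and 74.2, 80.0 and 101.2 in spleen. Tconv counts were 15.6, 2.88 and 1.99 in liver, 35.5, 39.8 and 35.1 in LDLN, 5.59, 2.11 and 0 in PBMC and 3.85, 9.98 and 3.73 in spleen. LDLN Tconv exceeded both PBMC and liver Treg. The liver and PBMC Treg groups were narrowly apart, with means of 13.7 and 22.8.

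Pdzk1ip1, the PDZ-binding membrane protein, followed a similar split. Treg counts were 31.9, 33.3 and 22.9 in liver, 302.5, 227.4 and 184.7 in LDLN, 51.1, 46.4 and 33.8 in PBMC and 246.8, 237.2 and 174.2 in spleen. Tconv counts were 18.9, 31.7 and 4.98 in liver, 56.8, 46.8 and 23.1 in LDLN, 6.71, 20.0 and 7.16 in PBMC and 98.3, 77.1 and 31.1 in spleen. LDLN and spleen were high and liver and PBMC low in Treg, with the LDLN and spleen ranges overlapping. The highest liver Treg library and the lowest PBMC Treg library differed by little, 33.3 against 33.8.

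Syp, the vesicle protein, was even between replicate libraries in Treg and less so in liver Tconv. Treg counts were 48.3, 40.3 and 43.8 in liver, 239.0, 238.4 and 229.5 in LDLN, 106.9, 109.0 and 84.0 in PBMC and 114.5, 102.2 and 123.1 in spleen. Tconv counts were 31.2, 14.4 and 21.9 in liver, 31.5, 26.9 and 39.1 in LDLN, 34.7, 27.4 and 26.6 in PBMC and 19.3, 20.9 and 13.7 in spleen. All Treg libraries were above all Tconv libraries, and PBMC and spleen Treg overlapped.

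Eno3, the muscle-type enolase, was the gene for which liver Treg and liver Tconv were closest. Treg counts were 128.4, 153.2 and 117.8 in liver, 581.3, 543.7 and 710.4 in LDLN, 392.5, 266.4 and 291.0 in PBMC and 326.4, 228.5 and 438.6 in spleen. Tconv counts were 151.0, 117.2 and 127.6 in liver, 145.1, 141.7 and 221.8 in LDLN, 120.8, 106.5 and 73.7 in PBMC and 110.8, 78.0 and 119.3 in spleen. The liver means were 133.1 in Treg and 131.9 in Tconv with overlapping ranges, while Treg was 3.16 to 3.61 times Tconv in the other tissues.

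Tgm2, the cross-linking enzyme, varied widely between replicate libraries. Treg counts were 32.8, 14.1 and 17.7 in liver, 128.0, 130.7 and 65.7 in LDLN, 176.8, 126.1 and 47.1 in PBMC and 267.4, 101.2 and 134.1 in spleen. Tconv counts were 9.85, 138.3 and 6.98 in liver, 25.4, 18.7 and 9.03 in LDLN, 10.1, 29.5 and 6.14 in PBMC and 51.1, 42.6 and 46.0 in spleen. The LDLN, PBMC and spleen Treg ranges overlapped, and Liver Tconv 2 was higher than every LDLN Treg library. That library also had the highest summed level of 12 macrophage and monocyte markers of the 24 libraries, 10896, beside the other lists in which it stood apart. The sum was 306.0 to 1177 in liver Treg, 213.4 to 359.1 in LDLN Treg, 2307 to 2736 in PBMC Treg and 2796 to 4845 in spleen Treg. It was 170.5 to 320.1 in LDLN Tconv, 372.4 to 662.1 in PBMC Tconv and 1120 to 1233 in spleen Tconv. The part of these cells in the Tgm2 levels was not tested.

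**Figure D2:**
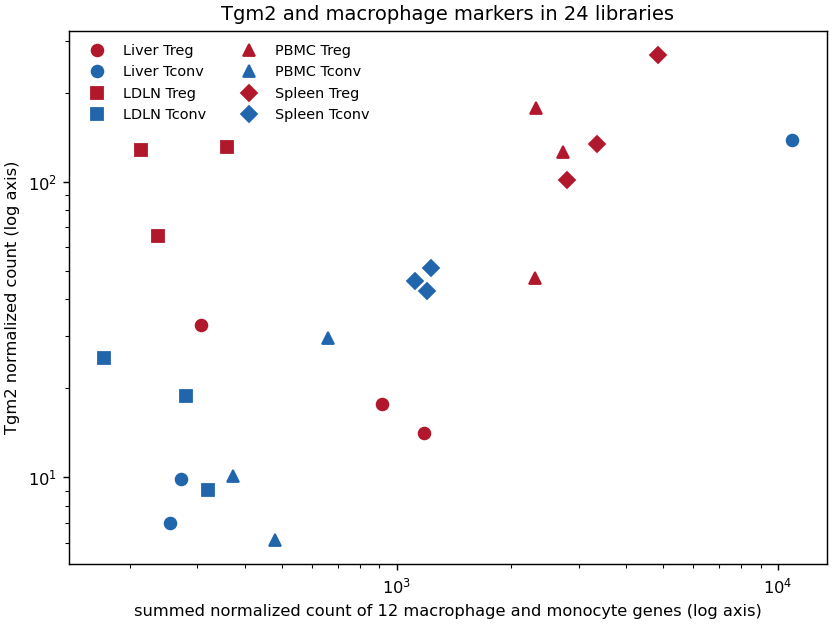
Tgm2 normalized count against the summed normalized count of 12 macrophage and monocyte marker genes (both log axes) in 24 libraries, with a shape per tissue and a color per cell type. Liver Tconv 2 stands alone at the right with a marker sum of 10896 and a Tgm2 count of 138.3, and the 3 LDLN Treg libraries reach 65.7 to 130.7 at sums of 213.4 to 359.1.

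Spin2c, the spindlin gene, was the only one of the 8 with liver Treg wholly below liver Tconv. Treg counts were 54.0, 51.4 and 60.5 in liver, 432.4, 390.1 and 399.9 in LDLN, 114.4, 112.0 and 74.8 in PBMC and 135.9, 155.2 and 166.0 in spleen. Tconv counts were 118.2, 120.1 and 89.7 in liver, 209.0, 202.6 and 181.6 in LDLN, 47.0, 69.6 and 67.5 in PBMC and 51.1, 69.8 and 84.5 in spleen. LDLN was highest in both cell types. Liver Tconv lay above PBMC and spleen Tconv, and liver Treg was 0.506 times liver Tconv by means.

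For Treg minus Tconv within a tissue, all Treg libraries exceeded all Tconv libraries in 8 of 8 genes in LDLN, PBMC and spleen (17.2%, 15.8% and 17.5% of all genes) and in 3 of 8 in liver (16.9%). The 3 were Gpr83, Stra6 and Syp, 4 overlapped, and in Spin2c all liver Treg libraries were below all liver Tconv libraries (18.1% of all genes). Because the choice used the Treg libraries, these counts are descriptions. On the log2(value + 1) scale, used for all differences here with standard errors (SE), the 8 genes' median difference was 0.97 (liver), 2.56 (LDLN), 2.47 (PBMC) and 2.2 (spleen). The median over all genes was between -0.02 and 0.03. Without the 5 Tconv libraries that had Foxp3, the liver difference of Pdzk1ip1 went from 0.93 to -0.13. That of Tgm2 went from -0.11 to -2.71. The liver difference was then 2.58 for Gpr83, 3.41 for Stra6, 1.91 for Slc22a2, 1.55 for Syp, 0.17 for Eno3 and -1.11 for Spin2c. All of these liver values rest on Liver Tconv 2 alone, the library that stood apart in several marker lists.

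Gpr83 and Eno3 were higher in the Tconv libraries with Foxp3 than in the other Tconv libraries of the same tissue, in 4 of 4 tissues, and Syp was so in 3. The other genes were so in 0 or 1 of the 4 tissues. The share of all genes that did so was not computed, so these counts are descriptions and nothing is read from them. In Spleen Tconv 3, Foxp3 was 31.8% of the spleen Treg mean, Spin2c (55.4%) and Eno3 (36.0%) were above that share, and the other genes lay between 3.38% (Stra6) and 27.4% (Tgm2). In LDLN Tconv 3, Foxp3 was 30.3% of the LDLN Treg mean and 6 of the 8 genes were below that share. The number below the Foxp3 share was 0 in Liver Tconv 1, 4 in Liver Tconv 3 and 5 in PBMC Tconv 1. In the Tconv libraries with Foxp3 at 0.69% to 1.65% of the Treg mean, the 8 genes ranged from 0% (Slc22a2, PBMC Tconv 3) to 641.9% (Tgm2, Liver Tconv 2). Outside Liver Tconv 2 the highest was 69.3% (Spin2c, PBMC Tconv 2).

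**Figure D3:**
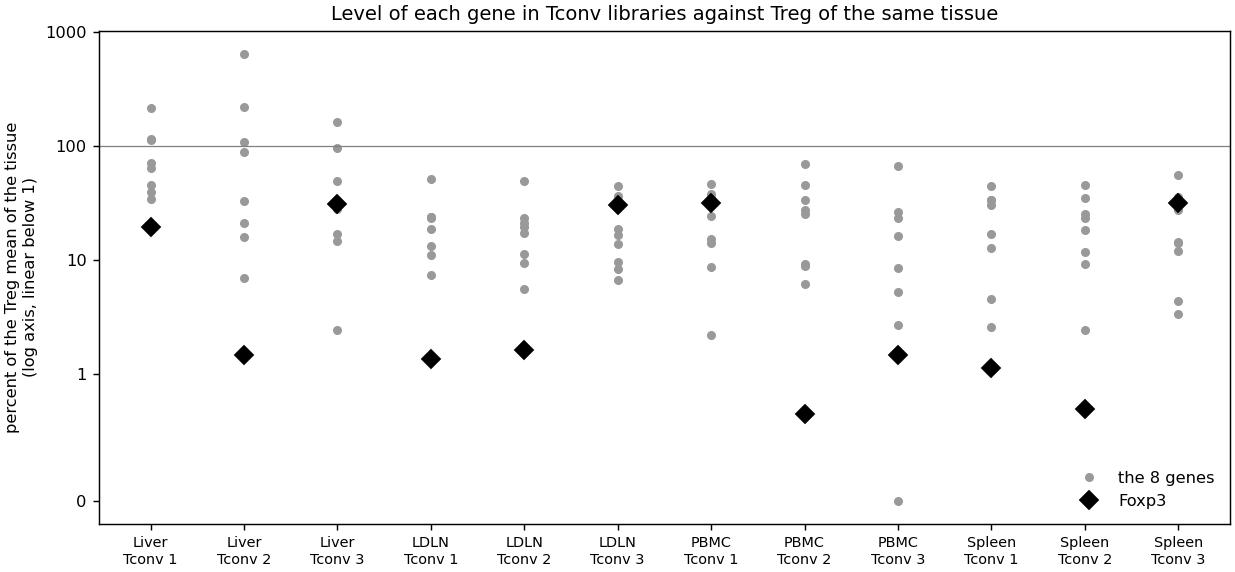
Level of the 8 genes (grey circles) and Foxp3 (black diamonds) in each of the 12 Tconv libraries, as a percent of the Treg mean of the same tissue (log axis, linear below 1). Foxp3 reached 19.4% to 31.8% in 5 libraries and 0.69% to 1.65% in 7, and the grey circles reached or passed 100% only in liver.

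Liver Treg minus the mean of LDLN, PBMC and spleen Treg was -2.48 ± 0.63 (SE, n = 3 libraries a group) for Tgm2, -2.31 ± 0.46 for Slc22a2, -2.13 ± 0.42 for Pdzk1ip1, -1.82 ± 0.23 for Gpr83, -1.81 ± 0.38 for Stra6, -1.71 ± 0.16 for Spin2c, -1.63 ± 0.19 for Syp and -1.56 ± 0.19 for Eno3. Among 18576 genes ordered from the lowest difference, these ranked from 11 for Tgm2 to 103 for Eno3. The largest ratio of another Treg mean to the liver Treg mean was that of LDLN for 7 of the 8 genes and that of spleen for Tgm2. Against LDLN the Treg mean was 4.44 to 13.8 times the liver mean, whereas against PBMC it was 1.49 times for Pdzk1ip1 and 1.67 times for Slc22a2, and 5.42 times for Tgm2. Against spleen it was 1.79 times for Stra6 and 7.78 times for Tgm2.

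**Figure D4:**
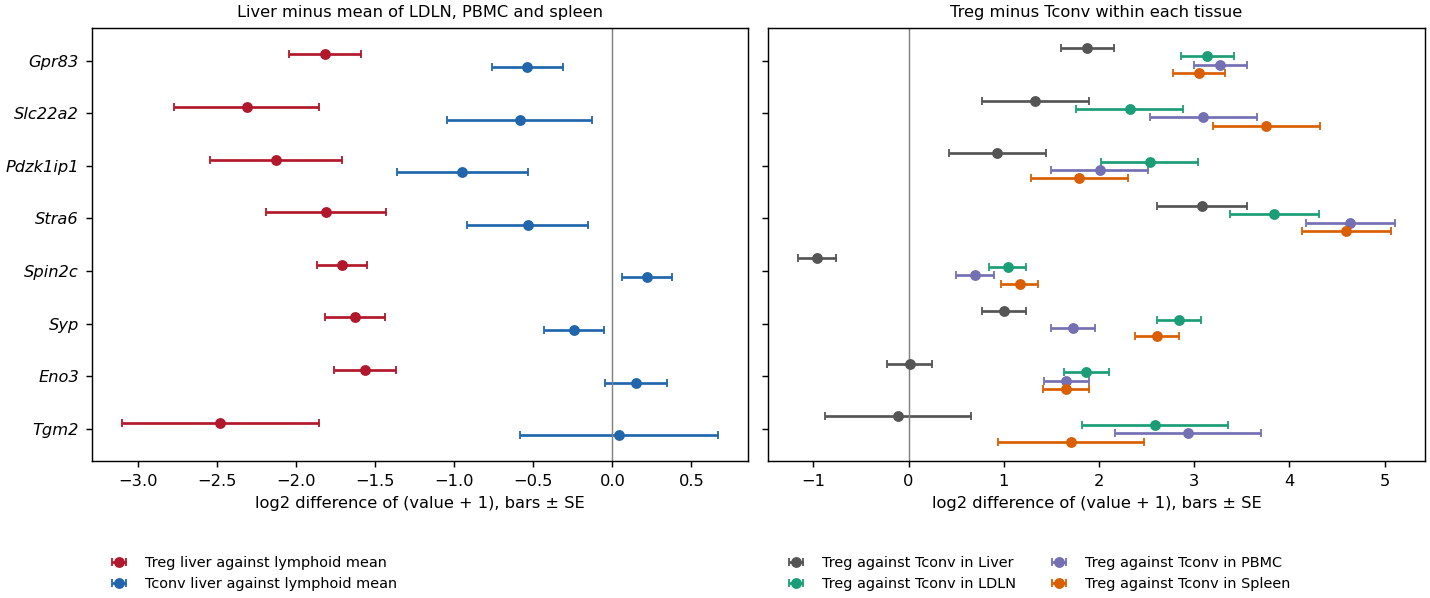
Left, liver minus the mean of LDLN, PBMC and spleen in Treg (red) and Tconv (blue). Right, Treg minus Tconv in each tissue. Points are log2 differences of (value + 1) with bars of ± SE, the Treg liver values chose the genes and carry no test, and liver Tconv values lie between -0.95 and 0.22.

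The stated rule of choice used Treg values, so the same genes were also compared between liver and the lymphoid tissues in Tconv. The genes were picked with earlier results of these data known, so independence of the Tconv values from the choice is not shown. For liver against the mean of LDLN, PBMC and spleen Tconv, 0 of 8 genes passed an adjusted p of 0.05 by limma, against 3.18% of all genes, and 2 had an unadjusted p under 0.05. edgeR called 0 with 0 under an unadjusted 0.05, and DESeq2 called 0 with 2. With few genes called in all, a count of 0 in 8 does not show that these genes were unchanged in liver Tconv. Liver Tconv 2 stood apart in markers of other cells, and Liver Tconv 1 and 3 had Foxp3. The differences were -0.95 ± 0.42 for Pdzk1ip1 (adjusted p = 0.289 by limma), -0.59 ± 0.46 for Slc22a2 (0.66), -0.54 ± 0.23 for Gpr83 (0.257), -0.54 ± 0.38 for Stra6 (0.61), -0.24 ± 0.19 for Syp (0.663), 0.04 ± 0.63 for Tgm2 (0.988), 0.15 ± 0.19 for Eno3 (0.834) and 0.22 ± 0.16 for Spin2c (0.623). The median of the 8 was -0.39, against 0.01 over all genes, and the liver Treg median was -1.81. Without Liver Tconv 1, Gpr83 was lower in liver at -0.84 (adjusted p = 0.0399) and Stra6 at -1.34 (0.00955). Without the 5 Tconv libraries with Foxp3, Gpr83 was lower at -1.07 (0.0191) and Tgm2 higher at 2.47 (0.0414). Liver Tconv 2 is then the only liver Tconv library, for every gene, and is assumed to vary like the other groups.

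Against single tissues, 4 of 8 genes were lower in liver Tconv than in LDLN Tconv, where 4.67% of all genes were lower. The difference was -2.71 ± 0.56 for Slc22a2 (adjusted p = 0.00271 by limma), -1.94 ± 0.47 for Stra6 (0.0086), -0.96 ± 0.28 for Gpr83 (0.0271) and -0.86 ± 0.20 for Spin2c (0.00594). The Gpr83 call was lost without LDLN Tconv 1 (0.073), LDLN Tconv 3 (0.101), Liver Tconv 2 (0.222) or Liver Tconv 3 (0.0572), the Stra6 call without Liver Tconv 2 (0.0515) or Liver Tconv 3 (0.0725), and the Spin2c call without the 5 libraries with Foxp3 (0.0636), which leaves Liver Tconv 2 alone. With only the groups compared in the model, the calls of Slc22a2 (0.0522), Stra6 (0.156) and Gpr83 (0.105) were lost and that of Spin2c was not (0.0324), and with no variance trend that of Gpr83 was lost (0.0507). Against PBMC Tconv (3.2% of genes higher in liver), Spin2c alone passed and was higher in liver by 0.83 ± 0.20 (0.0144), lost without Liver Tconv 2 (0.0759) or PBMC Tconv 1 (0.0998), without the 5 libraries (0.0819) and with only the groups compared (0.154). Against spleen Tconv (4.43% of genes lower and 3.45% higher in liver), Pdzk1ip1 was lower in liver at -2.00 ± 0.51 (0.0178), lost without Liver Tconv 3 (0.114), Spleen Tconv 1 (0.116) or Spleen Tconv 2 (0.0636), without the 5 libraries (0.0729) and with only the groups compared (0.222). Spin2c was higher at 0.68 ± 0.20 (0.0347), lost without Liver Tconv 1 (0.108), Liver Tconv 2 (0.117), Spleen Tconv 1 (0.227) or Spleen Tconv 2 (0.064), with no filter (0.0585), with quantile (0.0994) or upper quartile scaling (0.0676) and with only the groups compared (0.235). In all, 6 of the 7 single-tissue calls in liver Tconv were lost with only the groups compared.

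The 3 lymphoid tissues also differed among themselves in these genes. In Treg, 6 of 8 genes differed among LDLN, PBMC and spleen by limma's F-test, against 38.8% of all genes. This contrast leaves liver out, but its libraries are among those by which the genes were chosen. Nothing is therefore read from the share beside its background. The p-values below are not shown to be independent of the choice, and the values describe how the tissues differ. The 6 were Spin2c (adjusted p = 2.38e-07), Syp (0.000424), Slc22a2 (0.000767), Pdzk1ip1 (0.000872), Eno3 (0.00369) and Stra6 (0.0106). Gpr83 (0.0979, and 0.0306 with quantile scaling, 0.0407 with the replicate number as a block and 0.00257 with only the groups compared) and Tgm2 (0.776) did not pass. PBMC Treg were lower than LDLN Treg (7.52% of genes) in Slc22a2 at -3.02 ± 0.56, Pdzk1ip1 at -2.41 ± 0.51, Spin2c at -2.03 ± 0.20, Syp at -1.24 ± 0.23 and Eno3 at -0.96 ± 0.24. Spleen Treg were lower than LDLN Treg (12.6% of genes) in Stra6 at -1.86 ± 0.47, Spin2c at -1.42 ± 0.20, Syp at -1.05 ± 0.23 and Eno3 at -0.92 ± 0.24, the last lost without Spleen Treg 2 (0.0512). Against PBMC Treg (14.4% of genes), spleen Treg were higher in Pdzk1ip1 by 2.30 ± 0.51. They were also higher in Slc22a2 by 1.87 ± 0.56, lost without PBMC Treg 2 (0.0637) or Spleen Treg 3 (0.0526) and with a pseudocount of 0.1 (0.142), and in Spin2c by 0.62 ± 0.20, lost without PBMC Treg 3 (0.142), Spleen Treg 2 (0.0664) or Spleen Treg 3 (0.0759) and with quantile scaling (0.0504), upper quartile scaling (0.0537) or only the groups compared (0.0708).

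Tconv showed differences among the lymphoid tissues in 6 of 8 genes as well, against 27.4% of all genes. These were Spin2c (adjusted p = 1.42e-06 by limma's F-test), Slc22a2 (8.62e-05), Stra6 (0.000769), Pdzk1ip1 (0.00179), Syp (0.0184) and Eno3 (0.0313), and Gpr83 (0.131) and Tgm2 (0.156) did not pass. The Eno3 call was lost without LDLN Tconv 3 (0.21), PBMC Tconv 3 (0.057) or Spleen Tconv 2 (0.0512), the Syp call without Spleen Tconv 3 (0.121), and both without the 5 libraries with Foxp3 (0.13 and 0.165). With only the groups compared, Tgm2 passed (0.0448) and Syp (0.0831) and Eno3 (0.0719) did not, and Eno3 was also lost with no filter (0.0507) and with quantile scaling (0.0516). PBMC Tconv were lower than LDLN Tconv (2.81% of genes) in Slc22a2 at -3.79 ± 0.56 and Spin2c at -1.69 ± 0.20. They were also lower in Pdzk1ip1 at -1.88 ± 0.51 (adjusted p = 0.0283 by limma), lost without LDLN Tconv 1 or 2 or PBMC Tconv 1 or 3 (0.113 to 0.145), and in Stra6 at -1.61 ± 0.47 (0.0437), lost without LDLN Tconv 1, 2 or 3 or PBMC Tconv 1 or 3 (0.0906 to 0.181). Spleen Tconv were lower than LDLN Tconv (9.8% of genes) in Stra6 at -2.61 ± 0.47, Slc22a2 at -2.58 ± 0.56 and Spin2c at -1.54 ± 0.20. Syp was lower there at -0.83 ± 0.23 (0.0129), lost without LDLN Tconv 3 (0.0702) or Spleen Tconv 3 (0.0684), and Eno3 at -0.71 ± 0.24 (0.0372), lost without LDLN Tconv 3 (0.192) or Spleen Tconv 1 (0.0574) or 2 (0.173). Against PBMC Tconv, spleen Tconv were higher in Pdzk1ip1 (12.6% of genes) at 2.52 ± 0.51 and lower in Syp (9.34% of genes) at -0.70 ± 0.23 (0.0339), the latter lost without PBMC Tconv 1 (0.131) or 2 (0.0524) or Spleen Tconv 1 (0.0568) or 3 (0.142). With only the groups compared, these weaker calls of Pdzk1ip1 (0.0576), Stra6 (0.0722), Syp (0.0888 and 0.142) and Eno3 (0.0801) were lost too, and each was lost under at least 1 other setting or without the 5 libraries (0.0501 to 0.198).

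**Figure D5:**
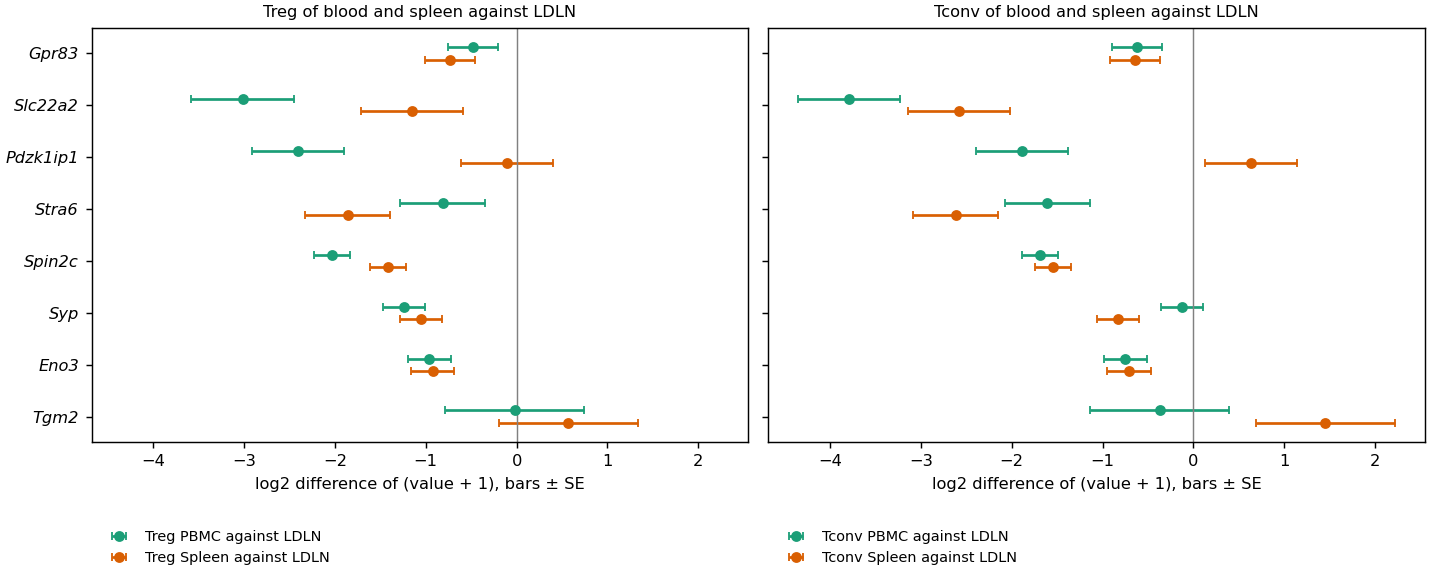
PBMC minus LDLN (green) and spleen minus LDLN (orange) in Treg (left) and Tconv (right) for each of the 8 genes, as log2 differences of (value + 1) with bars of ± SE. Gpr83, Stra6, Slc22a2, Syp, Eno3 and Spin2c lie left of 0 in both cell types and both tissues, and Pdzk1ip1 is low in PBMC and near LDLN in spleen Treg.

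The Treg minus Tconv gap was tested for a difference among LDLN, PBMC and spleen. By limma's F-test, 0 of 8 genes passed, against 0.953% of all genes, with 1 under an unadjusted 0.05. edgeR called 0 with 1 and DESeq2 called 0 with 2 under that level. The Treg libraries in the gap are among those by which the genes were chosen. With so low a share over all genes, nothing is read from a count of 0 in 8 genes. The lowest adjusted p was 0.2, for Syp, whose gap was 2.84 ± 0.23 in LDLN, 1.72 ± 0.23 in PBMC and 2.61 ± 0.23 in spleen.

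Across the 24 libraries the 8 genes were correlated with each other at a Pearson r of 0.42 to 0.95, median 0.72 over 28 pairs, as a description of libraries that share groups and depth. The genes most like each of them, of 10501 compared over the 24 libraries, were Gata1 (r = 0.97), Ift80 (0.97) and Myo9a (0.96) for Gpr83. They were Ncmap, Cnpy2 and Myo9a for Stra6 (0.94 to 0.96), Arhgap20, Agpat3 and Rec8 for Slc22a2 (0.92 to 0.93), and Slc29a1, Mir155hg and Rnf149 for Pdzk1ip1 (0.94 to 0.95). For Syp they were Myo9a, Ift80 and Capn3 (0.94 to 0.95), and for Eno3 Igf2r, Wdr60 and Capn3 (0.90 to 0.94). Spin2c had Lta, Rgs10 and Slc19a1 (0.85 to 0.88) and Tgm2 had Specc1, Marcks and Ifitm2 (0.83 to 0.84). Myo9a was among the 3 for Gpr83, Stra6 and Syp.

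In the family lists, 3 genes were lower and 9 higher in liver Treg than in the lymphoid Treg mean by limma, where 10.1% of all genes were lower and 9.66% higher. The number of genes tested is given below for each list, and no shift of the lists is read from these counts. Without Liver Treg 2 the counts were 1 lower and 4 higher, and without Liver Treg 1, LDLN Treg 1 or Spleen Treg 3 the lower count was 1. Around Stra6, 2 of 18 tested retinoid genes were higher and 1 lower. Aldh1a1, which makes retinoic acid, was higher by 2.35 ± 0.50 (adjusted p = 0.00215), with normalized counts of 68.9 ± 16.4 (SD, n = 3) in liver Treg, 1.93 ± 0.95 in LDLN Treg, 37.7 ± 12.6 in PBMC Treg and 31.6 ± 29.6 in spleen Treg, the last reaching into the liver range. Rdh12, a retinol dehydrogenase, was higher by 0.46 ± 0.12 (0.00924), lost without Liver Treg 2 (0.101). Rdh13, another of that family, was lower at -0.40 ± 0.14 (0.0476), lost without any one of LDLN Treg 1 or 3, Liver Treg 1 or 2, PBMC Treg 1 and Spleen Treg 1, 2 or 3 (0.0574 to 0.281). The Rdh13 call was also lost with a pseudocount of 0.1 (0.0512), no filter (0.0654) and upper quartile scaling (0.0539). It was lost too with no variance trend (0.0702) and with only the groups compared (0.0552).

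Around Slc22a2, 3 of 9 transporter genes were higher and 1 lower. The median difference of the 9 was 0.60, against 0.03 over all genes. The 3 higher genes are not named because their liver Treg means were below 50. The lower one was Slc22a17, a receptor of lipocalin 2, at -0.83 ± 0.26 (adjusted p = 0.0254 by limma), lost without Liver Treg 2 (0.0557) or Liver Treg 3 (0.165). Around Syp, 1 of 13 physin and vesicle fusion genes was higher and 1 lower, Stx1a (syntaxin 1A) at -0.37 ± 0.12 (0.0376), lost without Liver Treg 1 (0.335), LDLN Treg 1 (0.0637), PBMC Treg 1 (0.0573) or Spleen Treg 3 (0.0554). Of 9 tested genes around Foxp3 on chromosome X, Plp2 was the 1 that passed, higher by 0.59 ± 0.16 (0.0121), lost without Liver Treg 2 (0.11).

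Around Gpr83, 2 of 8 neuropeptide genes were higher and 0 lower. Pcsk1, the prohormone convertase that cuts neuropeptide precursors, was higher by 2.12 ± 0.43 (adjusted p = 0.00135 by limma), with normalized counts of 109.2 ± 20.7 (SD, n = 3) in liver Treg, 11.2 ± 12.7 in LDLN Treg, 74.8 ± 6.91 in PBMC Treg and 28.1 ± 18.4 in spleen Treg. Gpr171, a receptor for a peptide cut from the Pcsk1n precursor, was higher by 0.47 ± 0.12 (0.00775). Transglutaminases (5 tested), enolases and neighboring glycolytic steps (8), PDZ partners (4) and other spindlins (2) had 0 calls in either direction by limma, edgeR or DESeq2, with 3, 5 and 3 of these 19 genes under an unadjusted p of 0.05, and their median differences were 0.07, 0.18, 0.45 and 0.09, against 0.03 over all genes.

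Genes of Treg identity and of resting T cells were called in both directions in liver Treg against the lymphoid Treg mean. In that comparison 9.66% of all genes were higher and 10.1% lower. Of 15 Treg identity genes, 1 was higher and 4 lower, with a median of -0.28. Tnfrsf9 (4-1BB) was lower by limma at -1.39 ± 0.26 (adjusted p = 0.000782) and Izumo1r (also called FR4) at -1.06 ± 0.18 (0.000337). Il2ra was lower at -1.09 ± 0.36 (0.0375), lost without any one of LDLN Treg 3, Liver Treg 1, 2 or 3 and Spleen Treg 2 or 3 (0.0516 to 0.163). The Il2ra call was also lost with no filter (0.0508), with no variance trend (0.0632) and by DESeq2 (0.0576). Of 12 resting T cell genes, 2 were higher and 3 lower, with a median of -0.04. Klf2, a factor of quiescence and egress, was higher by 1.76 ± 0.14 (6e-08) and Il7r by 0.61 ± 0.09 (5.39e-05), while Ccr7, the lymph node homing receptor, was lower at -0.49 ± 0.12 (0.00544), lost without Liver Treg 1 (0.067).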

How the data were processed

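The deposited table held a normalized read count signal for each gene and library, made by the authors. The submitters' processing notes name GRCm38 and, with no order or role, HTSeq 0.6.1p1, SAMtools 0.1.19, Bowtie2 2.2.2, TopHat2 2.0.11 and Trimmomatic 0.32. Each library's values were whole multiples of 1 step, and dividing by it gave whole reads within 0.001 for 100% of values. Symbols and exon lengths came from GENCODE M21 (34645 of 35612 identifiers matched).

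Values were tested as log2(value + 1) in limma 3.58.1 (R 4.3.3), with a trended variance, as 1 model of the 8 groups that left 16 residual degrees of freedom. Genes with at least 10 in at least 3 of 24 libraries were kept (18576, all 8 described genes among them). P-values were adjusted by Benjamini-Hochberg over all genes tested and called at 0.05. edgeR 4.0.16 and DESeq2 1.42.0 were run on the recovered reads. The limma script was tested on simulated data with known changes. Fold changes of low genes are understated on this scale. Replicates are pools of mice, and the replicate numbers were not taken as pairs across tissues. Within a tissue, same-numbered Treg and Tconv correlated over 0.1 in all 3 pairs in LDLN (0.12 to 0.31) and liver (0.10 to 0.38) but not in all pairs in PBMC and spleen, and the labels do not say whether they came from the same mice. Depth is given as recovered reads.

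The 8 genes and the gene lists were chosen with earlier results of these data known. The genes named from the lists were up to 3 per list with the largest difference among those called in liver against lymphoid Treg and a mean of at least 50 on the higher side. Likeness used genes with a mean of at least 50, without predicted genes and receptor segments. The alternatives were other pseudocounts, filters and scalings, no variance trend, only the groups compared, a replicate block, each library left out, and, chosen after seeing the data, leaving out the 5 Tconv libraries with Foxp3 above 300.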

Additional observations from a re-analysis of the deposited data

How the results depend on the processing

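The count of the 8 genes called for liver against lymphoid Tconv was 0 and became 2 without the 5 Tconv libraries with Foxp3, an alternative chosen after seeing the data, and 0 to 2 when 1 library was left out, 2 being reached without Liver Tconv 1. Counts among lymphoid tissues stayed within 1.5 times the reported value under every alternative, at 6 to 7 in Treg and 4 to 6 in Tconv (4 without those 5 libraries), and the count for the gap was 0 throughout. The family genes called lower in liver Treg were 3, and 1 with no filter, 5 with quantile scaling and 1 with no variance trend. Those called higher were 9, and 5 with a filter at 50. With 1 library left out, the lower count was 1 to 3 and the higher count 4 to 10. The median liver difference of the 8 genes in Treg was -1.83, -1.72, -1.95 and -1.83 with pseudocounts of 0.1 and 10 and quantile and upper quartile scaling.

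Values that changed sign were uncalled differences of liver against lymphoid Tconv. Stra6 was 0.0649 by edgeR and 0.092 by DESeq2, and Tgm2 was -0.0738 with quantile and -0.0402 with upper quartile scaling. With 1 library left out, Stra6 ranged from -1.344 to 0.108, Syp from -0.4997 to 0.0316 and Tgm2 from -1.26 to 0.804, with the sign changed without Liver Tconv 3 for Stra6, without Liver Tconv 2 for Syp, and without Liver Tconv 2, LDLN Tconv 3, PBMC Tconv 1 or PBMC Tconv 3 for Tgm2. The cause was not tested.

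With the replicate number as a block, the counts were 0, 7, 6 and 0 for the 4 results on the 8 genes, Gpr83 joining the Treg count (adjusted p = 0.0407 by limma), and 3 lower and 9 higher for the family genes. Same-numbered libraries correlated at -0.40 to 0.33 between Treg of different tissues and at -0.09 to 0.47 between Tconv of different tissues. The numbers were therefore not taken as pairs across tissues. Between Treg and Tconv of a tissue, same-numbered libraries correlated at 0.07 to 0.42 and other-numbered ones at -0.30 to 0.20. A pairing within a tissue would bear on the gap test. The block used the number across all tissues, so a pairing within a tissue was not modelled and its effect was not tested. Low counts limit Slc22a2 and Stra6 in Tconv, where several libraries held a few reads.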
